A study of Mus musculus with 36 samples.

Results

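The tissue kallikrein family of the mouse submandibular gland was followed here through 10 genes, Klk1, Klk1b3, Klk1b4, Klk1b5, Klk1b8, Klk1b9, Klk1b21, Klk1b22, Klk1b24 and Klk1b26, taken by their symbols from the 29219 genes that had at least 1 transcript in the 26 Drop-seq libraries. All 10 were found in the single-cell tables and in the bulk tables, and all 10 passed the filter on low counts in every comparison of glands. Drop-seq is a droplet method that reads the 3′ end of transcripts and counts unique molecular identifiers (UMIs), 1 for each captured molecule. Each library came from the live sorted, methanol-fixed cells of the gland of 1 mouse. Control mice (labelled wildtype in 11 libraries and control in 1) carried, by the study's methods, K14-Cre, a recombinase driven in the basal epithelium, with the R26EYFP reporter. Double-mutant mice carried both of these, a beta-catenin allele that Cre turns into a gain of function (beta-catenin GOF), and a Bmpr1a allele that Cre inactivates (Bmpr1a LOF); all mice were on the C57BL/6 background. There were 12 control glands, 3 of each sex at postnatal day 40 (P40) and 3 of each sex at P90. There were 14 double-mutant glands, 4 female and 3 male at each of the same stages. Each gland was counted whole, so cells that had recombined were not separated from the rest. A lower count in a whole gland cannot be told apart from fewer cells that make the transcript, or from less RNA in each of them.

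Tissue kallikreins are serine proteases that are made as zymogens and secreted into saliva. Klk1 is the member that releases kinins from kininogens, and striated duct cells of salivary glands are a known source of it. Rodents have many further copies, the Klk1b genes, which are abundant in the granular convoluted ducts of the submandibular gland. These ducts are larger in male than in female mice, respond to androgens, and also store epidermal growth factor (Egf) and renin (Ren1). Klk1b9, Klk1b22 and Klk1b26 encode proteins known as epidermal growth factor binding proteins. Klk1b5, Klk1b8, Klk1b21 and Klk1b24 are the glandular kallikreins mGK-5, mGK-8, mGK-21 and mGK-24.

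The 10 genes lay on the plus strand of chromosome 7, between positions 43950664 and 44229618 of GRCm38. Klk1b8 was the first along the chromosome (43950664 to 43954941) and Klk1 the last (44225360 to 44229618). Each member had 5 exons. The copies are so alike that the reads of one can be mistaken for those of another. Over the coding sequence, Klk1 shared between 84.92% and 95.54% of its bases with the Klk1b members, with Klk1b5 the nearest. Pairs of Klk1b members shared between 85.33% and 94.0%, and Klk1b21 and Klk1b24 were the nearest pair. The last 64 coding bases, all in exon 5, are shown for each member because Drop-seq reads come from the transcript end and 64 bases were read. Capitals mark the bases that differ from Klk1.
Klk1 (chr7:44229506-44229569): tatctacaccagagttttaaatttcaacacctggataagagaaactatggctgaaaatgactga
Klk1b3 (chr7:44202242-44202305): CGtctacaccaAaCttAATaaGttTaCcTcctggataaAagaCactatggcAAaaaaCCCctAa
Klk1b4 (chr7:44211642-44211705): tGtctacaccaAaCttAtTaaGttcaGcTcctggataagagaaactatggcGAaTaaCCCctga
Klk1b5 (chr7:44220591-44220654): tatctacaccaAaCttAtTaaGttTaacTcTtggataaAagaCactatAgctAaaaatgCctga
Klk1b8 (chr7:43954832-43954895): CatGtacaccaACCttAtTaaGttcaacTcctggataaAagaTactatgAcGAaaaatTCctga
Klk1b9 (chr7:43980265-43980328): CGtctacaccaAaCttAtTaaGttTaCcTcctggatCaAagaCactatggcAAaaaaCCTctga
Klk1b21 (chr7:44106471-44106534): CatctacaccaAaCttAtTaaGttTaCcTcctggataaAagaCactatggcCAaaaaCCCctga
Klk1b22 (chr7:44116813-44116876): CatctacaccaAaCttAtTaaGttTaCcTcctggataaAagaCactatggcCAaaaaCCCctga
Klk1b24 (chr7:44192343-44192406): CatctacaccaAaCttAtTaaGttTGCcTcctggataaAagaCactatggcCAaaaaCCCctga
Klk1b26 (chr7:44016857-44016920): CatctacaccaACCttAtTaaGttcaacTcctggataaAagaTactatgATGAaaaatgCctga

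From Klk1, the other copies differed at between 13 (Klk1b5) and 19 (Klk1b3) of these 64 bases. Klk1b21 and Klk1b22 had the same 64 bases, and over the 36 pairs of Klk1b members the number of differences ran from 0 to 12, with a median of 9.0. The reads also reach beyond the coding bases. Of the 337 windows of 64 bases in the last 400 bases of each transcript, all those of Klk1b4, Klk1b5, Klk1b8 and Klk1b9 occurred in no other gene model of the family. The share was 98.8% for Klk1 and Klk1b3, 98.5% for Klk1b26 and 96.4% for Klk1b22. It was 87.5% for Klk1b21 and for Klk1b24, so counts of these 2 genes are the least certain. Klk1b4 had no window within 1 mismatch of another copy, against 142 windows for Klk1b21, 124 for Klk1b24 and 63 for Klk1.

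The upstream sequences were alike as well. The hexamer TTTAAA, which reads the same on both strands, stood in the RefSeq window of 250 bases before to 50 bases after the start of 9 of the 10 members, against 13.2% of 32851 such windows of all genes. In 8 members it followed the run gagaatgaggg after 1 or 2 bases. The window of Klk1 ends 1 base after that run, so it does not reach the place where the hexamer stands in the others. The hexamer AGAACA, searched on both strands with its reverse complement TGTTCT, was found in 2 of the 10 members and in 19.0% of all windows. The 100 bases before the RefSeq start are shown for Klk1b8 and Klk1b9, the members with the largest sex difference given further on, with TTTAAA in capitals (GRCm38.p6, plus strand).
Klk1b8 (chr7:43950566-43950665): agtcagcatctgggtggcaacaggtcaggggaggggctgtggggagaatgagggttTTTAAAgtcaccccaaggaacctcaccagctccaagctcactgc
Klk1b9 (chr7:43975961-43976060): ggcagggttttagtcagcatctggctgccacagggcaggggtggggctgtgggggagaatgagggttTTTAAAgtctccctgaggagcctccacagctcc

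After filtering, each gland gave between 606 and 1209 cells and between 650301 and 6994504 UMIs. The counts of Xist and of Y-linked genes went against the sex label in 2 libraries. Double-mutant P40 replicate 1 was labelled male and held 708 Xist UMIs and 1 Y-linked UMI, and double-mutant P90 replicate 5 was labelled female and held 225 Y-linked UMIs and 1 Xist UMI. The 2 libraries were kept under their labels. The genotype fits over both stages, and the fit of sex in double-mutant glands, are given without them too. Fits of stage, of the interactions and of 1 stage or sex alone are not given without both. The 2 libraries were of the same batch, 1 labelled P40 and the other P90, and sex genes do not check a stage label. Ctnnb1, the beta-catenin gene, ranged from 22.8 to 126 CPM (UMIs scaled to 1000000 per library) in control glands and from 33.6 to 270 in double-mutant glands, and Bmpr1a from 9.50 to 26.2 and from 8.91 to 46.6. Reads from the transcript end lie outside the edited exons and do not check the genotype of a library. Batches were in part of 1 genotype or 1 stage only, which is given beside the comparisons.

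The family was a large part of the RNA of these glands. Its 10 members held 2054807 UMIs, or 2.86% of all UMIs in the 26 glands, and Klk1 alone held 47.5% of the family's UMIs. Klk1 had the highest median over glands, 9315 CPM. Klk1b26 followed with 734, Klk1b5 with 499, Klk1b9 with 421, Klk1b4 with 290.0, Klk1b22 with 264, Klk1b3 with 209, Klk1b21 with 119 and Klk1b8 with 80.5. Klk1b24 was the least abundant, with a median of 36.8 CPM and 0.491% of the family's UMIs. For each neighbouring pair in this order, the ranges over the 26 glands overlapped. The range of Klk1b26 ran from 9.66 to 59825 CPM. Klk1b24 was listed at 0 in 1 gland, double-mutant P90 replicate 4, where 0 of 802264 UMIs allows up to 3.74 CPM by counting error.

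**Figure D1:**
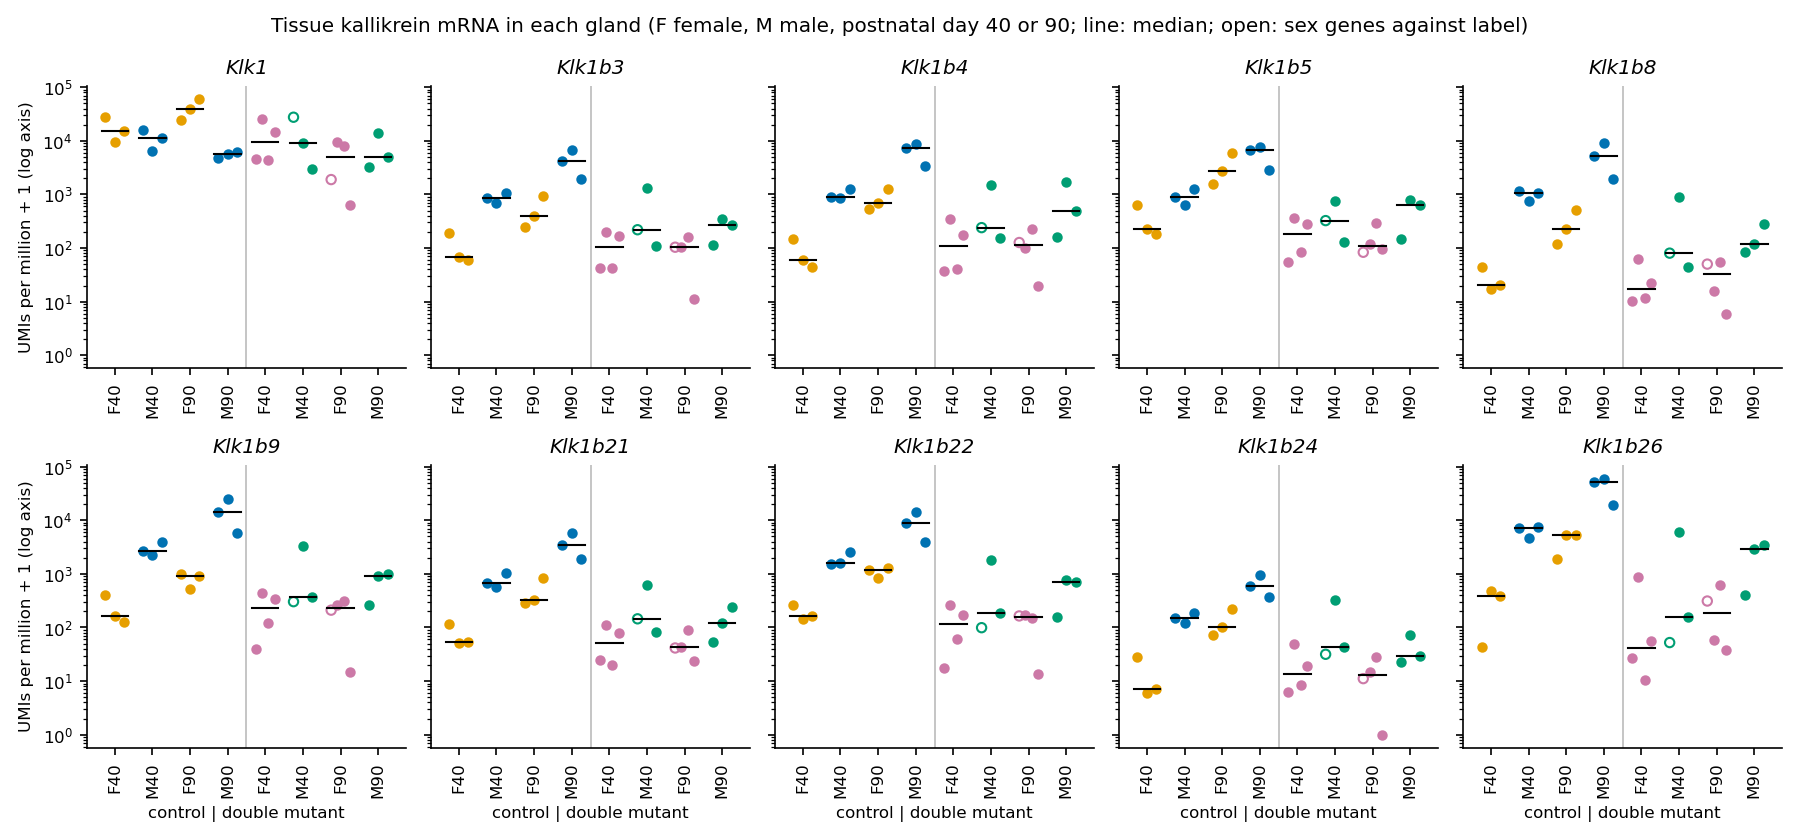
CPM (plus 1, log axis) of each of the 10 members in every gland, by sex and stage, for control and double-mutant glands. Points are glands, lines are medians, and open points are the 2 libraries whose sex genes went against their labels. Control male glands sit above control female glands for most Klk1b members, for example Klk1b8 at P40, with 763 to 1156 in males and 16.5 to 43.0 in females.

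In control glands, 8 of the 9 Klk1b members were higher in males than in females, and Klk1 and Klk1b5 did not pass the test. Klk1b8 had 16.5, 19.7 and 43.0 CPM in the P40 females and 763, 1046 and 1156 in the P40 males. At P90, Klk1b8 had 117, 225 and 515 in the females and 1901, 5247 and 9158 in the males. The male and female glands were apart at both stages, and the P90 females lay between the P40 females and the P40 males. Over both stages Klk1b8 was 37.6-fold higher in males (log2 difference 5.23 ± 0.48, SE, edgeR quasi-likelihood test, adjusted p = 3.34e-05, 6 male and 6 female glands). Klk1b9, an epidermal growth factor binding protein gene, had 126, 162 and 408 CPM in the P40 females and 2228, 2694 and 3965 in the P40 males. At P90 the Klk1b9 values were 525, 911 and 982 in the females and 5714, 14166 and 24820.3 in the males. They did not overlap at either stage, and the log2 difference was 4.47 ± 0.46 (adjusted p = 8.21e-05).

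Klk1b26, the second most abundant member, had 42.2, 384 and 475 CPM in the P40 females and 4686, 7286 and 7638 in the P40 males. At P90 it had 1855, 5213 and 5391 in the females and 19417, 50694 and 59825 in the males. The groups were apart at both stages, with the lowest female at P40 well below the other 2. The log2 difference of Klk1b26 was 4.25 ± 0.63 (adjusted p = 0.00196). The remaining members that rose in males were Klk1b4 (3.81 on the log2 scale) and Klk1b3 (3.57), with Klk1b22 (3.69), Klk1b21 (3.67) and Klk1b24 (3.46). Each of these had an adjusted p of 0.000368 or lower. Of all 9099 genes tested, 0.736% were higher in males by the same test. The median log2 difference was 3.68 over the 10 members and -0.03 over all genes.

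Klk1b5, the Klk1b copy nearest to Klk1 in sequence, had 183, 228 and 647 CPM in the P40 females and 635, 905 and 1270.2 in the P40 males. At P90 it had 1562, 2789 and 6045 in the females and 2896, 6784 and 7693 in the males. The sexes overlapped at both stages, and the log2 difference of Klk1b5 was 1.599 ± 0.39 (adjusted p = 0.0848). Klk1 had 9347, 14949.7 and 27953 in the P40 females and 6366, 11399 and 16070.3 in the P40 males. At P90, Klk1 had 24626, 39459 and 60749.8 in the females and 4806, 5727 and 6194 in the males. The sexes overlapped at P40, and at P90 each male gland lay below each female gland. Over both stages the log2 difference of Klk1 was -1.32 ± 0.42 (male against female, adjusted p = 0.202). At P90, 43.0% of the genes tested had all 3 males below all 3 females in CPM, so this order was common there, whereas males above females, as seen for 8 Klk1b members, held for 1.21% of genes at P90 and 1.32% at P40.

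The sex difference was also present at each stage on its own. With P40 glands only, 7 Klk1b members rose in males (all but Klk1b5 and Klk1b26), and 0.243% of genes did. With P90 glands only, 8 rose (all but Klk1b5), and 0.574% of genes did. In 3 batches a control male and a control female of the same stage had been processed together. All 9 Klk1b members were higher in the male in 2 of these batches, both at P40, by a median of 2.55 and 4.27 on the log2(CPM + 1) scale. In the third, at P90, 8 were higher, by a median of 1.40, while Klk1 was lower by -3.29 on that scale. Each of these values sets 1 male gland against 1 female gland, or against 2 in the batch with the median of 4.27.

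From P40 to P90, all 9 Klk1b members rose in control glands and Klk1 did not pass the test. The largest change was that of Klk1b26 (log2 difference 2.79, adjusted p = 0.00507) and the smallest that of Klk1b9 (1.75, adjusted p = 0.0111). Klk1b4 rose by 2.68 (adjusted p = 0.000231), Klk1b5 by 2.65 (adjusted p = 0.000582) and Klk1b8 by 2.64 (adjusted p = 0.000814). Klk1b24, Klk1b21, Klk1b22 and Klk1b3 rose by between 1.999 and 2.42. Of all genes tested, 10.9% passed in either direction and 9.25% were higher at P90. Klk1 differed by -0.18 ± 0.41 (adjusted p = 0.853).

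Gland by gland, all 9 Klk1b members had each P90 gland above each P40 gland in males and in females. This order held for 12.5% of genes in males and for 28.4% in females. For Klk1 the P90 males (4806, 5727 and 6194 CPM) lay below the P40 males (6366, 11399 and 16070.3), and the females of both stages overlapped. With males only, 3 Klk1b members passed the test (Klk1b4, Klk1b5 and Klk1b24; 4.05% of genes were higher). With females only, 6 did (all but Klk1b3, Klk1b9 and Klk1b26; 6.09% of genes were higher). Control glands of P40 and of P90 were never processed in 1 batch, and stage and batch cannot be told apart in the controls.

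Between genotypes, the 9 Klk1b members were lower in double-mutant than in control glands, and Klk1 did not pass the test. For Klk1b5 the double-mutant P40 females had 53.5, 83.0, 282 and 366 CPM, and the P40 males 131, 324 and 750.3. At P90 the double-mutant females had 82.4, 94.7, 117 and 296 and the males 149, 632 and 774. Every P90 double-mutant gland was below every P90 control gland of the same sex, and at P40 the genotypes overlapped in both sexes. With sex and stage in the model, Klk1b5 was lower by -3.02 ± 0.57 on the log2 scale (SE, adjusted p = 0.000843, 14 double-mutant and 12 control glands).

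Klk1b26 had 9.66, 25.9, 53.9 and 860.1 CPM in the double-mutant P40 females and 51.3, 158 and 6103 in the P40 males. At P90 it had 37.4, 57.0, 311 and 607 in the double-mutant females and 411, 2918 and 3386 in the males. The highest P40 male, replicate 3, lay among the control males, and the lowest, replicate 1, was the library whose sex genes were female. The log2 difference of Klk1b26 was -3.20 ± 0.88 (adjusted p = 0.0130), the largest of the family. Klk1b8 had 4.99, 14.8, 49.1 and 53.2 in the double-mutant P90 females and 81.7, 119 and 279 in the P90 males, all below the control glands of their sex and stage. Its log2 difference was -2.92 ± 0.70 (adjusted p = 0.00527).

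The other members that fell were Klk1b21 (-2.90, adjusted p = 0.00177), Klk1b22 (-2.67, adjusted p = 0.00523), Klk1b9 (-2.20, adjusted p = 0.0237), Klk1b3 (-2.15, adjusted p = 0.0181) and Klk1b4 (-1.90, adjusted p = 0.0399), with Klk1b24 (-2.07, adjusted p = 0.0329). Of the 10488 genes tested, 22.0% passed in either direction and 7.56% were lower in double-mutant glands. The median log2 difference was -2.44 over the members and 0.02 over all genes. Without the 2 libraries whose sex genes went against their labels, 6 members fell, and Klk1b4, Klk1b9 and Klk1b24 no longer passed. The 9 Klk1b values of that fit lay between -2.98 and -1.67, and its share over all genes is not given here. Klk1b4 also lost its call in 12 of the 26 fits that left out 1 gland (log2 differences of -2.20 to -1.66 over all of them), and Klk1b24 in 7 (-2.72 to -1.80). Those glands were of both genotypes and both stages for Klk1b4.

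Klk1 had 4398, 4519, 14756 and 25363 CPM in the double-mutant P40 females and 2919, 9283 and 27561 in the P40 males. At P90, Klk1 had 638, 1892, 7981 and 9468 in the double-mutant females and 3264, 4937 and 14184 in the males. The P90 females were below the P90 control females, and the other sets overlapped the controls. The log2 difference of Klk1 was -1.21 ± 0.52 (adjusted p = 0.0907).

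The genotype calls came with the P90 glands. With P90 glands only, all 9 Klk1b members fell, by between -3.30 and -4.71 on the log2 scale, and 1.34% of 9094 genes did. With P40 glands only, 0 members passed (edgeR, between -0.12 and -1.49), 2 had an unadjusted p under 0.05, and 0.00979% of genes were lower. Among the P90 females all 10 members were lower in each double-mutant gland than in each control gland, an order that 3.25% of genes showed, and among the P90 males 9 were, against 1.68% of genes. At P40 all 10 members overlapped between genotypes in both sexes, where 0.420% of genes in males and 0.238% in females had each double-mutant gland below each control gland. That the difference depends on stage was tested as an interaction, given further on, and did not pass with the filter on low counts. With males only 2 Klk1b members fell (Klk1b5 and Klk1b21; 0.854% of genes), and with females only 0 passed (6 with an unadjusted p under 0.05; 0.0491% of genes).

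The values within batches were not all of 1 direction. In the 2 batches with P90 glands of both genotypes all 9 Klk1b members were lower in the double mutant, by a median of -4.24 in males and -6.43 in females on the log2(CPM + 1) scale. In a batch of P40 males all 9 were lower, by a median of -2.66. In the 2 batches of P40 females 7 and 8 of the 9 were higher, with medians of 0.09 and 0.58. Each of these values rests on 1 double-mutant gland and 1 or 2 control glands. The double-mutant gland of the P90 female batch, replicate 4, is one that the study left out of its subclustering for a high content of ribosomal genes, and Klk1 was also lower in it, by -6.57, against -0.09 in the batch of P90 males. Without replicate 4, over all the other glands, 8 Klk1b members fell, and Klk1b4 did not pass (-1.73 on the log2 scale). The share of all genes lower in the fit without replicate 4 is not given here. With batch as a covariate over all 26 glands, 0 members passed (between -1.78 and -3.97 on the log2 scale, 6 with an unadjusted p under 0.05). In that fit 300 of 15183 genes passed.

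The share of cells that fell in the duct clusters described further on also differed between glands. It was 23.3%, 46.0% and 55.8% in the control P90 males and 10.9%, 22.8% and 30.3% in the control P90 females. In the double-mutant P90 glands it ran from 6.17% to 22.8% in males and from 3.97% to 12.3% in females. At P40 the control glands had between 9.47% and 25.7%, and the double-mutant glands between 4.08% and 23.1%. The part of this share in the family's levels was not tested.

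Within the double-mutant glands, 0 members passed the test of sex (edgeR; 9 had an unadjusted p under 0.05, and DESeq2 called 1). The same test called 0.00% of 9857 genes. The 9 Klk1b members were higher in males by between 1.58 and 3.58 on the log2 scale, and Klk1 differed by 0.21 ± 0.81. Without the 2 libraries whose sex genes went against their labels the count was also 0, with differences of between 1.56 and 3.82. Without the filter on low counts 8 members passed, as did 38 of 27233 genes. In each of the 3 batches that held double-mutant males and females of 1 stage, all 9 Klk1b members were higher in the males, with medians of 1.43, 1.91 and 4.04 on the log2(CPM + 1) scale. The batch with the largest median holds the library labelled male whose sex genes were female. The interaction of sex and genotype passed for 0 members (edgeR; 0 with an unadjusted p under 0.05; DESeq2 0) and for 0.00% of 11420 genes, so a smaller sex difference in the double mutant is not shown.

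The rise with stage seen in the controls was not detected in the double mutant. For stage, 0 members passed within the double-mutant glands (edgeR; 0 with an unadjusted p under 0.05; DESeq2 0), as did 0.00% of all genes, and the 10 log2 differences lay between -0.38 and -1.40. The interaction of stage and genotype passed for 0 members as well, although 9 had an unadjusted p under 0.05 (edgeR; DESeq2 0), and for 0.00876% of genes. Its log2 values lay between -2.44 and -3.62 for the Klk1b members, and that of Klk1 was -1.06. Without the filter on low counts the interaction passed for 9 members, and for 189 of 29219 genes.

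**Figure D2:**
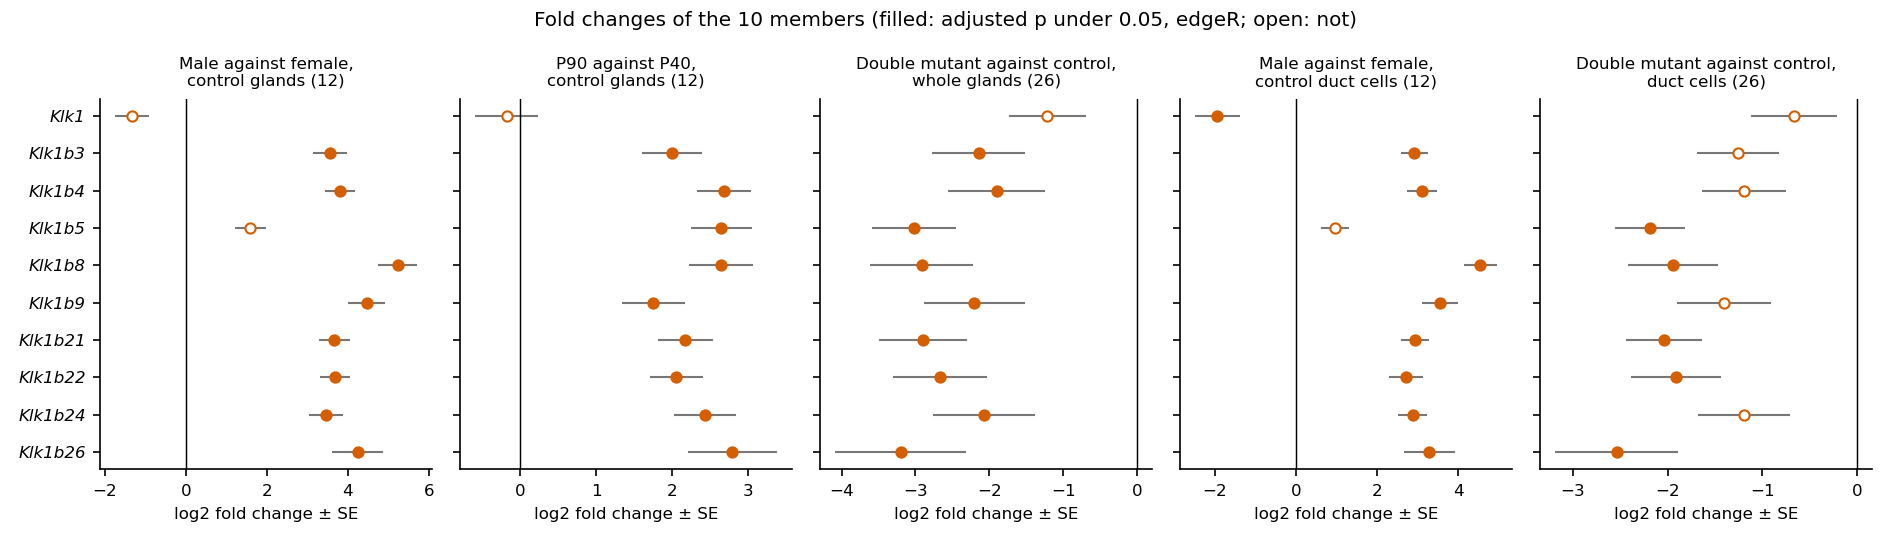
Log2 differences with SE (horizontal axis) of the 10 members in 5 edgeR comparisons: sex and stage in control glands, genotype in whole glands, and sex and genotype in duct cells. Filled points had an adjusted p under 0.05. Klk1b8 has the largest sex difference (5.23), and Klk1 lies on the other side of 0 (-1.32) from the 9 Klk1b members.

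Klk1 and the summed Klk1b members did not move together over the glands. Klk1 made up 88.6%, 93.5% and 93.7% of the family's UMIs in the control P40 females and 34.3%, 36.3% and 49.9% in the P40 males. At P90 it made up 77.7%, 78.1% and 78.3% in the control females and 3.98%, 4.52% and 13.02% in the males. The male and female glands were apart at each stage, and Klk1 went from most of the family in females to a small part of it in P90 males. The 9 Klk1b members together had 1033, 1208 and 1881 CPM in the control P40 females, and 41364, 101518 and 138265 in the P90 males. In the 3 control P90 males the family took 4.76%, 10.6% and 14.4% of all UMIs of the gland.

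In the double-mutant P90 females the Klk1 share was between 63.4% and 91.5%, and in the P90 males it was 41.3%, 64.8% and 69.9%. At P40 it was between 90.4% and 94.7% in the double-mutant females and 35.8%, 69.6% and 94.9% in the males. The lowest P90 female, replicate 5, and the highest P40 male, replicate 1, are the libraries whose sex genes went against their labels. Over the 26 glands, Spearman's rho between Klk1 and the summed Klk1b members was 0.300, as a description of values that share each library's depth. Klk1b5 had 6.34, 7.07 and 9.95 UMIs for every 100 of Klk1 in the control P90 females and 46.7, 134 and 141 in the P90 males.

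**Figure D3:**
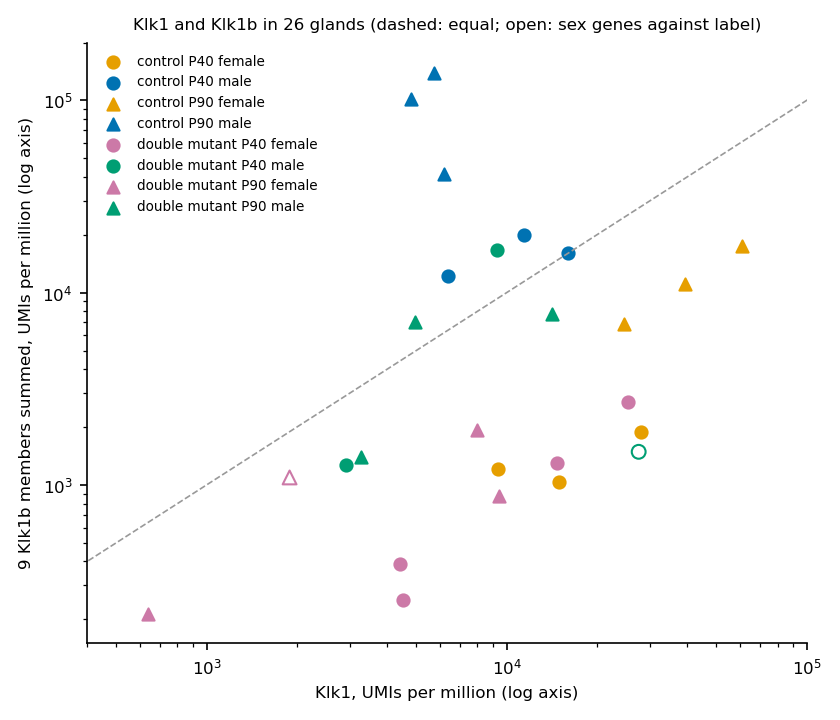
Klk1 (horizontal) against the sum of the 9 Klk1b members (vertical), both in CPM on log axes, with 1 point per gland and a dashed line of equal values. The control P90 males lie above the line, with Klk1b sums of 41364 to 138265 and Klk1 of 4806 to 6194, and the control females lie below it.

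To place the members in cell types, cells were clustered with all kallikrein genes left out, and clusters were named by markers of the tissue. Cluster 3 (1981 cells) was striated duct-like by Fxyd2, Cftr and 5 further markers. Clusters 5 (1213 cells) and 11 (737 cells) were granular duct-like by markers that include Egf, Ren1 and Crisp3. Cells of these 3 clusters are called duct cells here. Values per cluster pool the P40 and P90 glands of a sex. Klk1 was high in clusters 3 and 5, most of all in females. In cluster 3 the control female glands had a median of 147286 CPM of Klk1 (134759 to 204992) and the male glands 103165 (41107 to 137141). In cluster 5 they had 266663 (181789 to 312688) and 53802 (12619.9 to 110034). The sexes overlapped in cluster 3 and were apart in cluster 5, where 6.33% of genes had each male gland below each female gland. In the ionocyte or duct progenitor-like cluster, Klk1 had a median of 86981 in females and 42866 in males.

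The Klk1b members were highest in cluster 11. In control male glands Klk1b26 had a median of 166026 CPM there (110281 to 190999.8), 17805 in cluster 5 (13979 to 73660) and 8017 in cluster 3 (4724 to 14006). Klk1b8 had 19635 in cluster 11 (17069 to 40960.4), 1921 in cluster 5 (1056 to 6319) and 565 in cluster 3 (281 to 881). Klk1 went the other way, with a median of 14909 in cluster 11 (2471 to 34491). For Klk1b8 the ranges of cluster 11 and of both other clusters were apart, and for Klk1b26 likewise. With both stages pooled (6 male and 6 female control glands), all 10 members overlapped between the sexes in cluster 3. There 0.139% of genes were apart with the males above and 0.416% with the males below. The Klk1b members also differed between stages, so overlap in a cluster does not show that the sexes were alike within a stage. In cluster 5, pooled in the same way, the 9 Klk1b members overlapped, where 0.500% of genes were apart with the males above. Klk1b8 in cluster 5, for example, had between 407 and 2880 in females and between 1056 and 6319 in males.

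With the control males of both stages pooled, most Klk1b transcripts came from few cells. The 661 cells of cluster 11, 12.9% of the cells of these 6 glands, held 83.8% of their Klk1b UMIs and 11.6% of their Klk1 UMIs. Most cells of cluster 11 came from P90 glands. The P40 males held 16, 60 and 72 of them (1.69%, 5.23% and 7.58% of each gland's cells). The P90 males held 91, 208 and 214 (12.1%, 32.4% and 30.8%). The pooled shares therefore lean on the P90 males. Cluster 5 held 40.8% of the Klk1 and 10.4% of the Klk1b UMIs, and cluster 3 held 26.3% and 1.03%. In the control females, cluster 3 held 35.3% of the Klk1 and 18.5% of the Klk1b UMIs, cluster 5 held 34.5% and 48.1%, and the 16 cells of cluster 11 held 0.982% and 11.9%. The clusters were built with Egf, Ren1 and other genes that differ between the sexes, so the number of cells per cluster is not a result of its own.

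**Figure D4:**
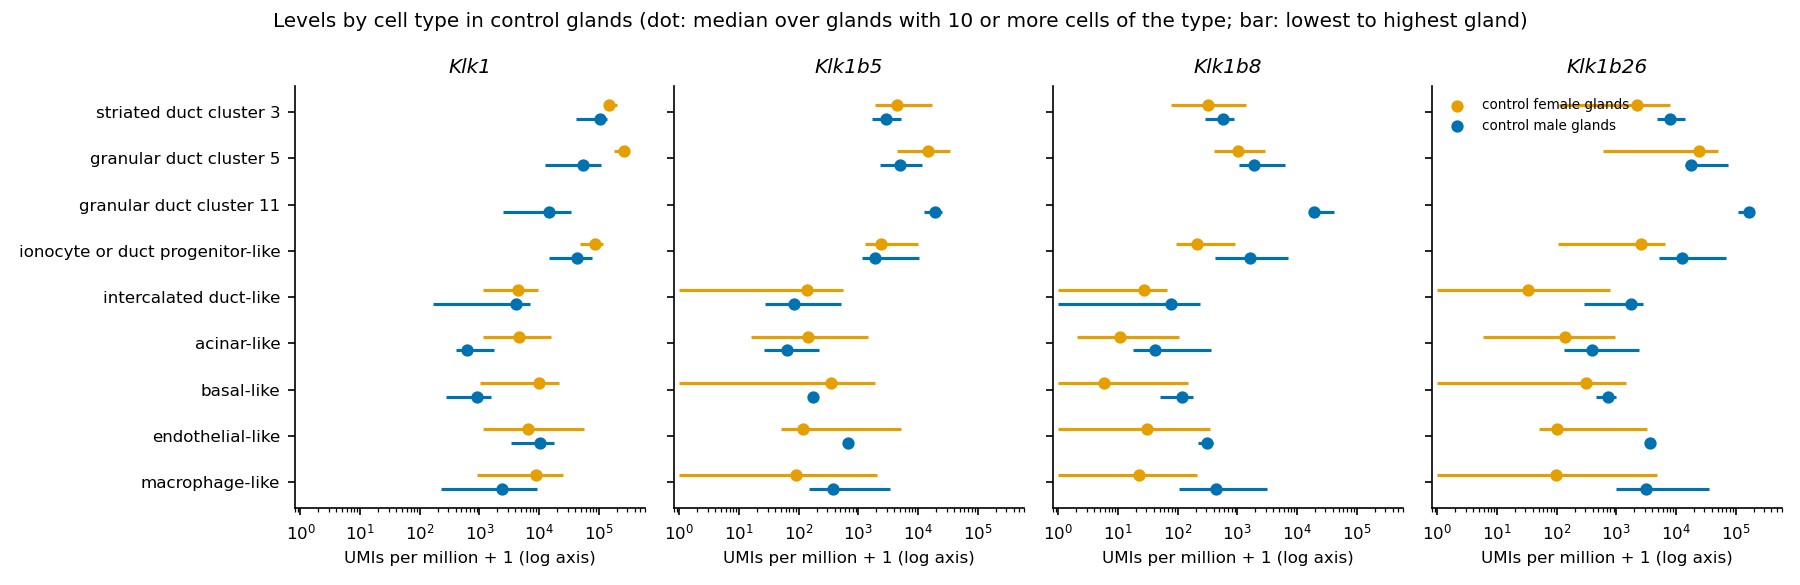
CPM (log axis) of Klk1, Klk1b5, Klk1b8 and Klk1b26 in each named cell type of control glands, females and males, as the median (dot) and the lowest to highest gland (bar) over glands with at least 10 cells of the type. In males Klk1b26 peaks in granular duct-like cluster 11 (166026), where Klk1 (14909) is below its level in striated duct-like cluster 3 (103165).

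Transcripts of the family were also counted in cells that should lack them. Thinned shares cover the cells with at least 500 UMIs, each thinned to 500, while shares before thinning and medians cover all cells of a type. After thinning, 52.2% of the macrophage-like cells of control females had a Klk1 UMI (66.7% before thinning, median 683 UMIs per cell). In control males the share was 33.4% (51.2%, median 968). In cluster 3 the thinned shares were 91.3% in females (94.2% before thinning, median 1174) and 82.0% in males (87.7%, median 1545). For Klk1b26 the macrophage-like share was 10.1% in females and 44.1% in males, against 100% in cluster 11 of males. For Klk1b8 it was 1.05% and 11.7%. In acinar-like cells the Klk1 level of female glands (1132 to 15764 CPM) lay within the range of macrophage-like cells (900 to 24801). Whether the acinar level is background was not tested.

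Within the duct cells of control glands, the sex difference of the Klk1b members was also present. In duct cells Klk1b8 had 238, 286 and 426 CPM in the P40 females and 7119.6, 8025 and 9108 in the P40 males. At P90, Klk1b8 had 922, 1248 and 2331 in the females and 10832, 15751 and 16420.1 in the males. The sexes were apart at both stages, and the log2 difference was 4.55 ± 0.41 (edgeR, adjusted p = 3.41e-07). In total 8 Klk1b members rose in male duct cells, where 12.7% of 3602 genes passed in either direction and 6.97% were higher. Klk1b9 differed by 3.54 and Klk1b26 by 3.29 ± 0.64 (adjusted p = 0.00222), and Klk1b5 by 0.96 ± 0.35 (adjusted p = 0.0804).

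Klk1 in duct cells had 163112, 188510.2 and 213866 CPM in the P40 females and 56864, 69061 and 100126 in the P40 males. At P90, Klk1 had 149446, 220034 and 256139 in the females and 9458, 11389 and 28949 in the males. The males were below the females at both stages, and Klk1 fell in male duct cells by -1.93 ± 0.55 on the log2 scale (adjusted p = 0.0259), as did 5.69% of genes. This call for Klk1 was lost without control P90 replicate 3 (-1.63), replicate 4 (-1.65) or replicate 5 (-1.94), and held in the other fits that left out 1 gland. Female duct cells were 66.6% cluster 3 and 1.58% cluster 11, and male duct cells 17.4% and 45.6%, so the comparison of duct cells is also one of different clusters. The part of that mix in the difference was not tested.

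In duct cells, 5 Klk1b members fell in the double mutant: Klk1b26 (-2.54 ± 0.65 on the log2 scale, edgeR, adjusted p = 0.0254), Klk1b5 (-2.19 ± 0.37, adjusted p = 0.000432), Klk1b21 (-2.04, adjusted p = 0.00246), Klk1b8 (-1.94, adjusted p = 0.0192) and Klk1b22 (-1.91, adjusted p = 0.0204). Of 3231 genes tested, 3.10% passed in either direction and 1.30% were lower. At P90, Klk1b26 in duct cells had 102475, 110012 and 157330.4 CPM in the control males and 7588, 24054 and 25682 in the double-mutant males. The females had 20549, 22389.9 and 25281 in control glands and between 1205 and 3926 in double-mutant glands. The genotypes were apart in both sexes. Klk1 differed by -0.67 ± 0.45 (adjusted p = 0.474) in duct cells, and Klk1b9, Klk1b3, Klk1b4 and Klk1b24 by between -1.19 and -1.41, none of them past the threshold. The duct cells of the genotypes were also of different clusters: cluster 11 held 45.6% of them in control males and 7.11% in double-mutant males, and cluster 5 held 31.8% in control females and 18.2% in double-mutant females. The part of that mix in the genotype difference was not tested. Single calls among the 5 were lost without 1 control gland: Klk1b22 without P90 replicate 1 (-1.69), Klk1b8 without P90 replicate 6 (-1.72) and Klk1b26 without P40 replicate 4 (-2.49).

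As in whole glands, the genotype calls in duct cells came with the P90 glands. With these only, 8 Klk1b members fell (all but Klk1b9; 1.08% of genes), and with P40 glands only 0 passed (edgeR; 1 with an unadjusted p under 0.05; 0.0261% of genes). With females only Klk1b5 alone fell (0.0480% of genes), and with males only 0 passed (edgeR; 9 with an unadjusted p under 0.05; 0.317% of genes). With batch as a covariate 0 passed and 7 had an unadjusted p under 0.05. In that fit 25 of 7814 genes passed. Without the 2 libraries whose sex genes went against their labels, 5 members fell. The 9 Klk1b values of that fit lay between -2.49 and -1.01 on the log2 scale, and its share over all genes is not given here.

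Other genes of the locus and pathway were tested in the same fits. The further copies Klk1b1, Klk1b11, Klk1b16 and Klk1b27 were higher in control males (4 of 4, Klk1b16 by 5.95 ± 0.44 on the log2 scale), as were 0.736% of all genes. They were higher at P90 in controls (4 of 4, by between 1.58 and 2.21), as were 9.25% of genes. In double-mutant glands they were lower (4 of 4, by between -2.39 and -2.80), as were 7.56% of genes. How far their reads can be told from those of the members is not given here. Of 13 kallikreins outside the tissue kallikrein group, 0 had counts high enough to be tested. Of 8 genes of the kallikrein-kinin system, 2 could be tested for genotype, and both rose in double-mutant glands, as did 14.4% of all genes: the kinin-degrading enzyme gene Ace (2.11 ± 0.38, adjusted p = 0.000549) and the serine protease inhibitor gene Serpina3n (2.97 ± 0.59, adjusted p = 0.00129). Of the genes of androgen action, Fkbp5, an androgen-responsive co-chaperone gene, differed by 0.93 between the sexes (adjusted p = 0.140), and Srd5a1, which encodes a 5-alpha reductase, by -0.23 (adjusted p = 0.882).

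The granular duct products Egf and Ren1 were higher in control males than in control females, by 4.73 ± 0.36 and 6.11 ± 1.24 on the log2 scale, both past the threshold. Egf was apart between the sexes at both stages. Ren1 overlapped at P40, with 11.1 to 4168 CPM in the males and 0 to 26.6 in the females. At P90 it was apart, with 5875 to 9549 in the males and 175 to 627 in the females. In double-mutant glands Egf fell (-2.02, adjusted p = 0.0130), and Ren1 did not pass (-2.03, adjusted p = 0.114).

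Over the 26 glands, the genes whose levels followed Klk1 and those that followed the Klk1b members were different. By Spearman's rho among 10473 genes, the 5 most like Klk1 were Acot13 (0.889), Cox8b (0.878), Chchd10 (0.865), Fxyd2 (0.852) and Atp1b1 (0.851). Among the 5 most like the summed Klk1b members were Crisp1 (0.899), Crisp3 (0.881), Serpinb1a (0.866) and RP23-3L20.5 (0.845). These are descriptions over glands that share libraries and batches.

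Bulk RNA sequencing of whole glands gave reads over the full transcripts, for 1 control female at P70 and 1 double-mutant female at P100, with 34515744 and 34729551 reads assigned to genes. There are no replicates, the stages differ, and the intervals cover counting error only. All 10 members were lower in the double mutant. Klk1 went from 18554 to 6542 TPM (a level scaled to transcript length and to the library), a ratio of 0.347 in CPM (95% interval 0.346 to 0.349). Klk1b26 went from 1031 to 101 TPM, a ratio of 0.0963 (0.0930 to 0.0998). Klk1b5 went from 830.3 to 35.1 TPM, a ratio of 0.0417 (0.0393 to 0.0442). The lowest ratio was that of Klk1b21 (0.0344, 0.0287 to 0.0408) and the highest among the Klk1b members that of Klk1b24 (0.277). More than 2-fold lower were 10.9% of 15265 genes, and the median log2 difference was -2.81 over the members and -0.31 over all genes.

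Per length, Klk1 was the most abundant member in both bulk libraries, followed in the control by Klk1b26 (1031 TPM), Klk1b5 (830.3), Klk1b22 (462), Klk1b9 (323) and Klk1b4 (229). The least abundant was Klk1b24 in the control (17.3 TPM) and Klk1b21 in the double mutant (3.83 TPM). The family took 2.16% of the control reads and 0.673% of the double-mutant reads, and Klk1 made up 85.7% and 95.6% of the family. The ratio of double mutant to control was 0.276 for Egf and 0.395 for Ren1.

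**Figure D5:**
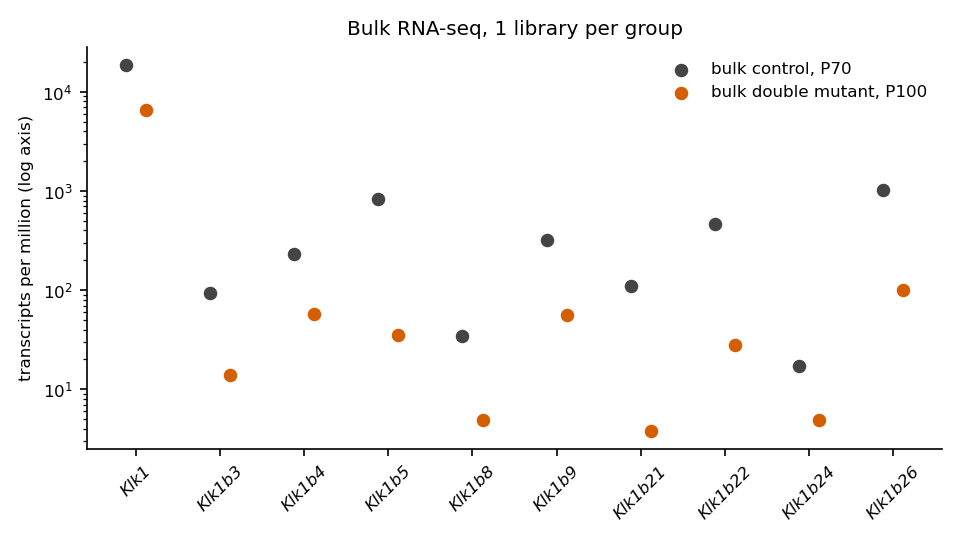
Level per length (TPM, log axis) of the 10 members in the bulk libraries of 1 control female gland at P70 and 1 double-mutant female gland at P100. Each member is lower in the double mutant, from Klk1 (18554 against 6542) to Klk1b21 (109.7 against 3.83).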

How the data were processed

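Per the labels, single-cell libraries were made by Drop-seq from submandibular glands, and the authors deposited UMI counts per gene and barcode. Per the submitters' processing notes, STAR, featureCounts and mm10 were used. The bulk tables are counts deposited by the authors, of reads over the exons of each gene name. Barcodes with at least 100 genes and under 15% mitochondrial UMIs were kept (23346 of 26987, of which 14 barcodes occurred in more than 1 library). Members and lists were chosen with earlier results of these data known: the members are a list of symbols, and other genes are named from lists of further copies, kallikreins, the kallikrein-kinin system, granular duct products and androgen action, and by Spearman's rho (5 for each target).

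Counts were summed per gland, the replicate, and tested with edgeR 4.0.16 (quasi-likelihood, TMM, filterByExpr) in R 4.3.3. Genotype was fitted over 26 glands with sex and stage, sex and stage within a genotype with the other as a covariate, and interactions in 1 model of all glands; p-values were Benjamini-Hochberg adjusted over all genes of each of 9 tests. DESeq2 1.42.0, its size factors, no filter, all barcodes, a replicate block, batch as a covariate and leaving out glands were the alternatives. Tests by stage or sex alone were added after the data were seen. Steps were tested on simulated data.

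For cell types, 2000 variable genes without kallikreins, 30 components and Leiden clustering (scanpy 1.11.5, leidenalg 0.10.2, resolution 1.0) were used, and no doublet caller was run. Shares of cells with a UMI were compared after thinning to 500 UMIs, over cells that had at least that many. Sequences were read from GENCODE vM21 transcripts and RefSeq promoter windows; all 10 members matched by symbol in both. Coding identity came from pairwise alignment (Biopython 1.88). Each biological replicate is 1 mouse, and replicate numbers did not pair the glands. Gland depth ran from 650301 to 6994504 UMIs, and bulk intervals are 95% and cover counting error only. Counts were not corrected for reads that fit more than 1 copy. Some genes of these lists are not reported here.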

Additional observations from a re-analysis of the deposited data

Results flagged for a closer look

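In total, 40 sets of 1 member in 1 genotype and stage were looked at. Single glands lay apart from the rest in 11 of them, all among the 7 double-mutant glands of a stage. The members share their glands, so these are not 11 separate events. In all of them the highest gland was separated, by Dixon's test at a level of 5%. That level holds for values of 1 kind of gland, and the groups hold both sexes, so it gives no chance rate here. At P40 it was replicate 3, a male, for 8 Klk1b members, in CPM: Klk1b3 with 1326 (the next gland had 218), Klk1b4 with 1487 (341), Klk1b8 with 909 (79.3), Klk1b9 with 3280.04 (435), Klk1b21 with 620 (144), Klk1b22 with 1850.47 (266), Klk1b24 with 325 (48.5) and Klk1b26 with 6103 (860.1). At P90 it was replicate 1, a male, for Klk1b4 with 1703 (490.5) and Klk1b24 with 70.9 (28.4), and replicate 2, a male, for Klk1b8 with 279 (119).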

How the results depend on the processing

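Of 244 recomputed counts and summaries, 224 stayed the same. For counts this meant within 1.5 times the reported value, and for the share of unique windows within the SD over the members. Of 2420 recomputed values of single members, 2230 kept their direction and side of the threshold, 106 lost the threshold, 48 passed it and 36 changed sign. The cause of each change was not tested, beyond the fewer glands in some fits. Replicate numbers did not pair the glands (13 of 37 same-numbered pairs correlated over 0.1, median 0.030). With the replicate block, 0 members passed for sex in control glands (10 of 10542 genes did). For sex in control duct cells 5 passed (38 of 4759 genes), and for genotype in duct cells 9 (161 of 5670). The block turned the sign of the sex-by-genotype values of Klk1b5 (0.87), Klk1b21 (0.082), Klk1b22 (0.25), Klk1b24 (0.82) and Klk1b26 (2.03), and of the double-mutant stage values of Klk1b4 (0.042), Klk1b22 (0.25) and Klk1b26 (1.64); it also raised the genes called for genotype in whole glands from 2308 to 3998. Batch as a covariate left 0 members for genotype in whole glands (300 of 15183 genes passed) and 0 in duct cells (25 of 7814). Genotype in whole glands counted 2 members with males only, 0 with females only and 0 with P40 only, and in duct cells 0, 1 and 0, and 8 with P90 only. Stage in control glands counted 3 with males only. Without the filter on low counts, 8 members passed for sex in double-mutant glands (38 of 27233 genes) and 9 for stage by genotype (189 of 29219). For genotype in duct cells 9 passed without the filter (259 of 20975). DESeq2 called 1 for sex in double-mutant glands (2 of 9857). For Klk1, the double-mutant sex value turned to -0.12 with all barcodes, -0.37 without the 2 libraries whose sex genes went against their labels, -0.11 with batch and -1.29 with both changes. Klk1 also turned for stage in control females (0.72) and for genotype in male duct cells (0.31), as did Klk1b5 for stage in double-mutant males (0.046) and Klk1b24 for genotype in P40 duct cells (0.22). The median share of windows that tell copies apart was 98.8% in the last 400 bases, 86.7% in the last 1000 bases and 86.8% over whole transcripts.

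Leaving out 1 gland at a time, the members called numbered 7 to 9 for genotype in whole glands, 8 to 9 and 9 to 9 for sex and stage in control glands, 8 to 10 for sex in control duct cells, and 0 to 0 for sex, stage and both interactions involving double-mutant glands. For genotype in duct cells they numbered 4 to 9, with 9 only without double-mutant P40 replicate 3. Signs turned for sex by genotype in Klk1b5 (-0.97 to 0.31), Klk1b24 (-2.57 to 0.25) and Klk1b26 (-3.05 to 1.31), for sex in double-mutant glands in Klk1 (-0.30 to 0.83), and for stage in double-mutant glands in Klk1b4 (-1.002 to 0.32), Klk1b5 (-0.66 to 0.016), Klk1b8 (-1.16 to 0.36), Klk1b9 (-1.28 to 0.24), Klk1b22 (-1.01 to 0.65) and Klk1b26 (-1.01 to 1.10).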

Other observations

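In 4 further single-cell RNA libraries from P70 glands, made for combined antibody and RNA counting, Klk1 had 5099.7 CPM in control replicate 1 (labelled male) and 5205 in control replicate 2 (labelled female), and 291 and 843 in the 2 double-mutant females. Klk1b26 had 2349 and 2113 in the controls and 12.7 and 20.9 in the double mutants. Klk1 made up 41.8% and 48.7% of the family in the controls and 87.0% and 81.1% in the double mutants. All 4 libraries held both Xist and Y-linked UMIs, so their sex labels could not be checked.

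The count of Klk1b26 for every UMI of Klk1b9 fell into separate ranges over the 26 Drop-seq glands. It was between 0.0820 and 0.667 in 7 glands, of which 1 was a control, and between 1.48 and 9.92 in 19, of which 11 were controls. The 7 were P40 glands except double-mutant P90 replicate 7, and female by sex genes except double-mutant P40 replicate 5. Other P40 females lay in the higher range. Genotype, sex, stage and batch are not told apart in this split. The split was chosen after its values were seen and was not tested.

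Klk1 made up between 74.9% and 94.7% of the family in the 13 glands that were female by label and by sex genes, and between 3.98% and 69.9% in the 11 that were male by both. The library labelled male with female sex genes had 94.9%, and the library labelled female with male sex genes had 63.4%. This grouping was made after the values were seen.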
